A study of Mus musculus with 8 samples.

Results

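The genes described here are 35 mouse genes of meiosis, the piRNA pathway and the testis that were grouped as genes kept silent by DNA methylation outside the germ line. They were chosen by name, and every probe of the array that the platform annotation pairs with one of them was followed. Of the 35 genes, 32 had at least 1 probe, with 47 probes in all out of 45281 on the array, and 3 (Rpl10l, Xlr3a and Xlr3b) had no probe paired with them alone. The cells were E14 mouse embryonic stem cells, grown with 15% serum and 1500 U/ml of LIF, the cytokine that keeps them undifferentiated. They were transfected with a short hairpin RNA and kept under puromycin for 3 days. The 3 knockdown groups, shDnmt3L1, shDnmt3L2 and shDnmt3L3, each carried a different hairpin against Dnmt3l, and the control group, shGFP, carried a hairpin against GFP. Each group had 2 arrays, 8 in all. Whether duplicates were cultured apart is not stated in the labels, and the p-values then cover only the variation between duplicates, which may be technical. All groups share the cell line, the transfection and the puromycin selection, and the knockdown of Dnmt3l was partial.

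Dnmt3l encodes a partner of the de novo DNA methyltransferases that has no catalytic activity of its own. In somatic cells many germline genes have CpG-rich promoters that are methylated and silent, and in embryonic stem cells a Polycomb complex that contains E2F6 and MGA, which bind E2F sites and E-boxes, also keeps such genes low. Meiotic genes build the axis of paired chromosomes, and piRNA genes make small RNAs that silence transposons in the male germ line. No methylation was measured on these arrays, so the word "silenced" could only be set against expression.

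Promoter windows of 7 members are shown first, because CpG dinucleotides are the sites that DNA methylation acts on. Each window runs from 250 bases before to 50 bases after the annotated start (RefSeq, GRCm38.p6), is read 5′ to 3′ on the strand of the gene, and has its CpG dinucleotides in capitals. Smc1b, Hormad2, Tdrkh and Tuba3a are members whose signal rose with every Dnmt3l hairpin. Sycp3 and Mael were below detection on every array, and Cabs1 is the member that fell furthest.
Smc1b: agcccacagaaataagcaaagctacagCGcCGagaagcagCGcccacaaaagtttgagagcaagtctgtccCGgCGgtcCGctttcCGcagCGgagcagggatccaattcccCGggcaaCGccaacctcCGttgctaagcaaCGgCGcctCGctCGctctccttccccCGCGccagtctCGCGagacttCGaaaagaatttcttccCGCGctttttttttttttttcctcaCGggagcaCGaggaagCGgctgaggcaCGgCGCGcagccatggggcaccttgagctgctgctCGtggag
Hormad2: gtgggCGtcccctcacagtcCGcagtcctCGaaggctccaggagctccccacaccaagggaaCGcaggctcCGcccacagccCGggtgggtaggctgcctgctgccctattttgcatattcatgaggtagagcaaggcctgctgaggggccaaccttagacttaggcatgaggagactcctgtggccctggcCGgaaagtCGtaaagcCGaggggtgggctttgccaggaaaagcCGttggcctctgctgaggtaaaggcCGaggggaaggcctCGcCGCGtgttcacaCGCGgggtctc
Tdrkh: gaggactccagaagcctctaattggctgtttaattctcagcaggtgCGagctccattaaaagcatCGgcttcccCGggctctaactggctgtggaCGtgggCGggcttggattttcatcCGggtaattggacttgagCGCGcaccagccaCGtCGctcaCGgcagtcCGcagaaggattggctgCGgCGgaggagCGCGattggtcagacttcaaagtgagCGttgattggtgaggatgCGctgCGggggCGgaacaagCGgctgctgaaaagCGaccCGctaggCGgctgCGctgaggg
Tuba3a: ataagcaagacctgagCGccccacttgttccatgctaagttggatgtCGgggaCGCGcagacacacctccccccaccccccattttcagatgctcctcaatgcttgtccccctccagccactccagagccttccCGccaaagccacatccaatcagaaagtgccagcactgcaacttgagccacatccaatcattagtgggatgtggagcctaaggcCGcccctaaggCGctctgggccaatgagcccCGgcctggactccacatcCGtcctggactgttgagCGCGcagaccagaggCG
Sycp3: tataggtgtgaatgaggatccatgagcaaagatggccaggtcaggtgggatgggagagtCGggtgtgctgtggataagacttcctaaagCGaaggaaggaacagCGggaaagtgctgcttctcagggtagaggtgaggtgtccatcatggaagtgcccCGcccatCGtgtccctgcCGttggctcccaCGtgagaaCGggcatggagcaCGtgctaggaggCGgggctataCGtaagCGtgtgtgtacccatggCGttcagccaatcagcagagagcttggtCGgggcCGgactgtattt
Mael: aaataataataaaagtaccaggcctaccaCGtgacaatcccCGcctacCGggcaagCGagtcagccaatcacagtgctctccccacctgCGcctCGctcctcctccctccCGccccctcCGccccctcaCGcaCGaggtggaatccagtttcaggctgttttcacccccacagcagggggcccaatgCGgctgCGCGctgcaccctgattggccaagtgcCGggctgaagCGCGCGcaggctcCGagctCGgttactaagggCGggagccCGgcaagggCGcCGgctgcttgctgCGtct
Cabs1: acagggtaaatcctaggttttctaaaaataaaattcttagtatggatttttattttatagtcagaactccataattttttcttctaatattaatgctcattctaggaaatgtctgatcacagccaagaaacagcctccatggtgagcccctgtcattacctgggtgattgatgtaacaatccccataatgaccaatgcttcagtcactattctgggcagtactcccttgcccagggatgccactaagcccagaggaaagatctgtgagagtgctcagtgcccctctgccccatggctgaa

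The Smc1b window (chr15:85131908-85132207, minus strand) held 29 CpG and the Tdrkh window (chr3:94412994-94413293, plus strand) held 25. Hormad2 (chr11:4441033-4441332, minus strand) had 16 and Tuba3a (chr6:125286032-125286331, minus strand) had 12. Among those below detection, Mael (chr1:166238695-166238994, minus strand) had 24 and Sycp3 (chr10:88459337-88459636, plus strand) had 15. Cabs1 (chr5:87979201-87979500, plus strand) had 0 CpG in its window. Among these windows, the genes that rose and the genes below detection had overlapping CpG counts, and Cabs1 stood apart from both. Other members called lower with a hairpin had more CpG than Cabs1 in their CpG-richest window. Syce1 had 14, D1Pas1 15, Tex19.1 16, Stk31 29 and Mov10l1, which was also called higher with shDnmt3L3, 20. Among members not shown, Nanos2 also had 0 CpG, Magea4 had 2, and the Piwil4 windows had 0 and 11. Over all members with a window and a probe, the median count in the CpG-richest window was 17.5 for the 12 detected on at most 1 array, 11 for the 7 detected on 2 to 7 arrays and 16 for the 11 detected on all 8.

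Over the 33 members with a promoter in the RefSeq table, 28 (84.8%) had a window with at least 10 CpG, against 45.8% of all 27025 genes in that table. The E-box CACGTG, a palindrome that reads the same on either strand, was in a window of 11 members (33.3%), against 8.09% of all genes. Among genes with at least 10 CpG in a window it was in 11 of 28 members (39.3%), against 11.8% of all such genes. The letters TCCCGC or GCGGGA, the core of an E2F site, were in 12 members (36.4%), against 22.0% of all genes. At 10 CpG or more these shares were 42.9% of members and 42.4% of all such genes. These are letter matches, given as a description without a test. In the windows shown above, Sycp3 held CACGTG 64 and 43 bases before its start, and Mael held it 223 bases before. The E2F core lay 47 bases before the start of Smc1b, 119 before that of Tuba3a, 147 before that of Sycp3 and 143 before that of Mael, whose window holds it again after the start. Among the windows shown, motifs of both kinds were in those of genes below detection, and the Hormad2, Tdrkh and Cabs1 windows held neither motif. Over all members with a window and a probe, CACGTG was in 6 of the 12 detected on at most 1 array. It was in 2 of the 7 detected on 2 to 7 arrays and 3 of the 11 detected on all 8. In the same order, the E2F core was in 5, 0 and 6 genes.

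**Figure D1:**
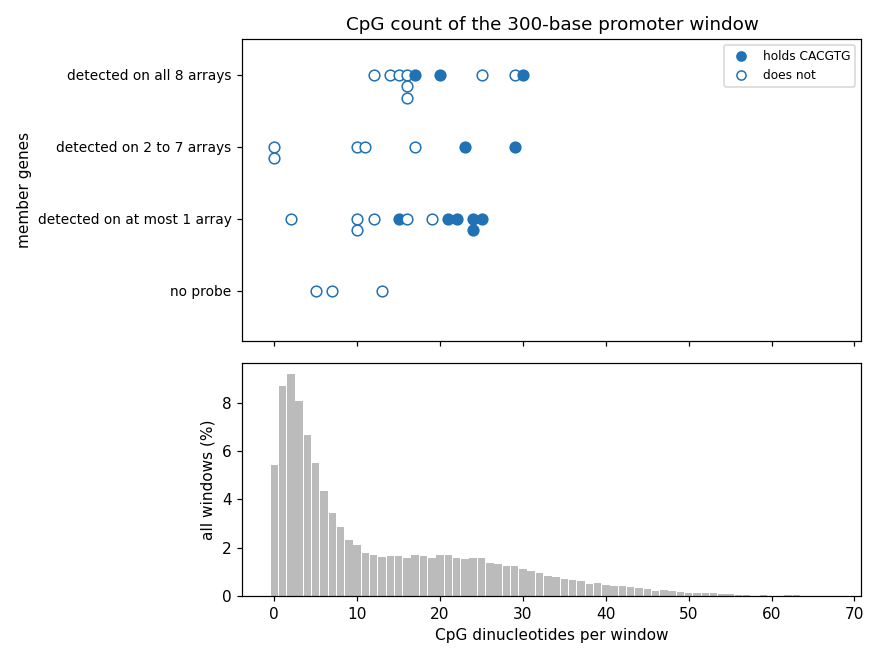
CpG dinucleotides in the 300-base promoter window of each member with a RefSeq window (upper panel, 1 point per gene at its CpG-richest window, filled where a window holds CACGTG), by the number of arrays that detected the gene, above the distribution over all 32851 windows of the table (lower panel, percent of windows). Members below detection reach 25 CpG and members detected on all 8 arrays run from 12 to 30.

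Dnmt3l itself read lower on all 6 arrays of the hairpin groups than on both shGFP arrays. Levels here and below are normalized log2 intensities. Dnmt3l had 10.51 and 10.45 with shDnmt3L1, 10.73 and 10.84 with shDnmt3L2, 9.34 and 9.19 with shDnmt3L3, against 11.87 and 11.97 with shGFP. On the linear scale 36.8%, 45.4% and 15.8% of the shGFP level was left with shDnmt3L1, shDnmt3L2 and shDnmt3L3. Over the probes tested, duplicates correlated at 0.995 to 0.996 and arrays of different groups at 0.970 to 0.992, and 18111 to 19241 probes were detected per array. All 12 embryonic stem cell markers were detected in every group, among them Pou5f1, Nanog and Sox2.

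A probe was called detected on an array when its detection p, which sets its signal against the negative controls of that array, was under 0.05. By that measure some members were already detected in the control cells and others stayed below background with every hairpin, with a few in between. A probe for 12 of the 32 genes was detected on all 8 arrays, shGFP included: Syce1, Hormad2, Smc1b, Stag3, Mov10l1, Tdrkh, Piwil2, Tex19.1, Taf7l, Tuba3a, Tuba3b and D1Pas1. The number of members detected on both arrays of a group was 18 with shDnmt3L1, 15 with shDnmt3L2, 16 with shDnmt3L3 and 15 with shGFP. So 15 members gave a signal above background in the control cells by this measure, and 13 did at a detection p under 0.01. No methylation was measured, so these signals do not show whether their promoters were methylated. Which transcripts each probe reads was not tested.

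Every probe of 10 members stayed below detection on all 8 arrays. They were the synaptonemal complex genes Sycp1, which forms the transverse filaments, and Sycp3, a lateral element protein; Hormad1, which marks unpaired chromosome axes; Mael and Tdrd1, which act in piRNA biogenesis; and Stra8, which starts meiosis in response to retinoic acid. The others were Slc25a31, the adenine nucleotide carrier of male germ cells, Tex101, a germ cell surface protein, and the X-linked genes Magea4 and Xlr5a. Sycp2, the partner of Sycp3, was detected on 1 array (shDnmt3L2), and Dpep3, a membrane dipeptidase of the testis, on 1 array (shDnmt3L3). For these 12 genes no difference between groups could be measured and none was tested. The detection p-values do not exclude transcripts below the level that the array can register.

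**Figure D2:**
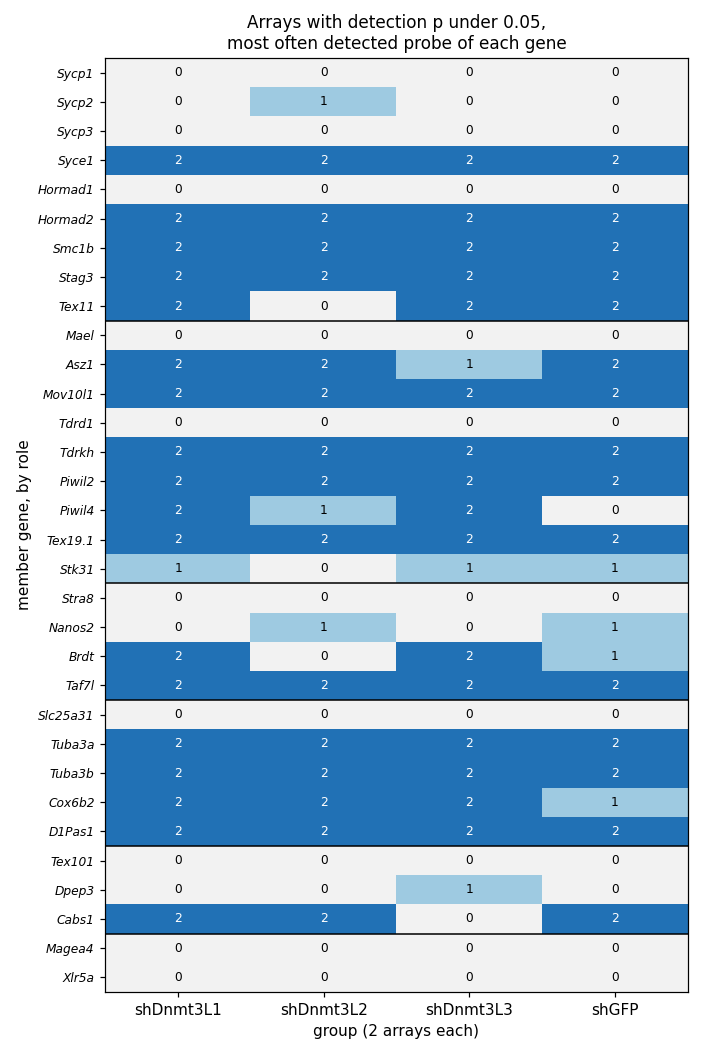
Number of arrays (0, 1 or 2) of each group on which the most often detected probe of each of 32 members had a detection p under 0.05, with members ordered by role. Rows that are 2 throughout are detected in shGFP too, and rows that are 0 throughout are the 10 members below detection everywhere. Cabs1, Tex11, Piwil4 and Brdt change between 2 and 0.

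The remaining 20 members had a probe detected on at least 2 arrays and were tested. On the normalized log2 scale the lowest value that counted as detected lay between 4.77 and 4.87 on the 8 arrays. Differences are a hairpin group minus shGFP in log2 units, ± SE from limma over 2 arrays per group, with p-values adjusted by Benjamini-Hochberg over all 20754 probes tested. Each gene is represented by its tested probe with the highest mean, and a difference was called at an adjusted p under 0.05. Because a member could enter the test through the group in which it was high, the counts below describe the 20 genes that entered and not the set of 35.

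With shDnmt3L1, 6 of the 20 members were higher and 4 lower. With shDnmt3L2, 5 were higher and 6 lower, and with shDnmt3L3, 10 were higher and 3 lower. Of all probes tested, 41.5% were called with shDnmt3L1 (20.7% higher and 20.8% lower), 32.8% with shDnmt3L2 (16.7% higher and 16% lower) and 45.5% with shDnmt3L3 (22.6% higher and 22.9% lower). The counts were above these shares most clearly for members higher with shDnmt3L3 (10 of 20) and lower with shDnmt3L2 (6 of 20). The 10 include Cox6b2, whose shGFP arrays were 4.34 log2 units apart, and Piwil4, which entered the test only through the hairpin groups. Both are also among the members higher with shDnmt3L1 and over the mean of the 3 hairpin groups. These shares are over probes, while each member is counted by 1 probe. With 1 probe per gene, 47.9%, 39.2% and 52.15% of 10930 genes were called with shDnmt3L1, shDnmt3L2 and shDnmt3L3. Of those calls 52.7%, 53.2% and 51.9% were higher. The member counts with each hairpin were the same in that fit. With all tested probes in the fit, 8 members were higher and 5 lower over the mean of the 3 hairpin groups. There 46.0% of all probes were called, 22.7% higher and 23.3% lower. The median difference of the 20 members from shGFP was 0.09, 0.07 and 0.20 with shDnmt3L1, shDnmt3L2 and shDnmt3L3 and 0.0046 over their mean, and that of all probes was between -0.014 and -0.0068. Under median scaling 8 members were higher and 2 lower with shDnmt3L1, and 6 higher and 3 lower with shDnmt3L2, so that the balance with shDnmt3L2 turned. Under that scaling 63.5% of the probes called over the 3 hairpins were higher, and under quantile normalization 49.5% were. Single arrays moved the counts too. The 4 lower with shDnmt3L1 were 2 without either shDnmt3L1 array. The 6 lower with shDnmt3L2 were 2 without shGFP replicate 2, 1 without shDnmt3L2 replicate 1 and 3 without shDnmt3L2 replicate 2. The 10 higher with shDnmt3L3 were 6 without shDnmt3L3 replicate 2. The 5 lower over the mean were 2 without shGFP replicate 2 and 3 without replicate 1 of shDnmt3L1, replicate 2 of shDnmt3L2 or replicate 1 of shDnmt3L3. With each hairpin as a random block in limma, 1 member stayed higher (Smc1b) and 0 were lower. That fit gives the arrays of a group 1 shared correlation, estimated at 0.624 over all probes. Its degrees of freedom still come from arrays, so it is not a test with hairpins as the repeats.

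**Figure D3:**
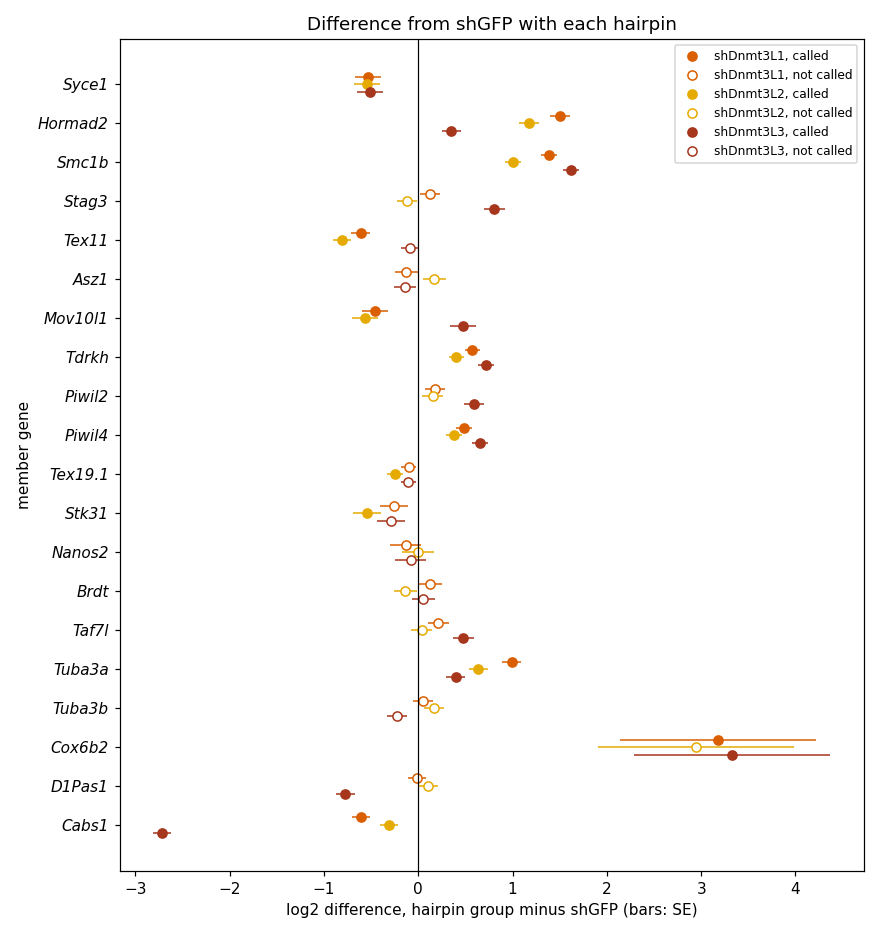
Difference from shGFP in normalized log2 intensity for the 20 tested members with each Dnmt3l hairpin. Points are estimates, bars are SE, and filled points have an adjusted p under 0.05. Smc1b, Tdrkh and Tuba3a lie right of 0 with all 3 hairpins, Mov10l1 lies on both sides, and Cabs1 is far left with shDnmt3L3.

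Of 5 tested genes of the synaptonemal complex and meiotic chromosome axis, 2 rose with shDnmt3L1, 2 with shDnmt3L2 and 3 with shDnmt3L3. Those that fell were 2, 2 and 1. Smc1b, the SMC subunit of meiotic cohesin, had 7.58 and 7.61 with shDnmt3L1, 7.23 and 7.20 with shDnmt3L2, 7.86 and 7.80 with shDnmt3L3, against 6.28 and 6.15 with shGFP. All 6 arrays with a Dnmt3l hairpin lay above both shGFP arrays, with no overlap. The difference from shGFP was 1.39 ± 0.08, 1.00 ± 0.08 and 1.62 ± 0.08 with shDnmt3L1, shDnmt3L2 and shDnmt3L3 (adjusted p = 1.65e-05, 0.000139 and 4.49e-06). The rise was greater with shDnmt3L3 than over the mean of shDnmt3L1 and shDnmt3L2, by 0.42 ± 0.07 (adjusted p = 0.00218). It was also greater with shDnmt3L1 than with shDnmt3L2, by 0.38 ± 0.08 (adjusted p = 0.039), and Smc1b was the 1 member of 20 to pass that comparison, in which 5.12% of all probes passed. Against shGFP, Smc1b kept its call with each hairpin and over their mean under every alternative run, the random block included (adjusted p = 0.00922).

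Hormad2, a HORMA domain protein of unpaired chromosome axes, rose with a different order of the hairpins. Its levels were 6.80 and 6.84 with shDnmt3L1, 6.43 and 6.55 with shDnmt3L2, 5.76 and 5.58 with shDnmt3L3, against 5.22 and 5.42 with shGFP. The 4 arrays of shDnmt3L1 and shDnmt3L2 stood more than 1 log2 unit above the highest shGFP array, and those of shDnmt3L3 lay just above it. The differences were 1.5 ± 0.10, 1.17 ± 0.10 and 0.35 ± 0.10 (adjusted p = 2.78e-05, 0.000164 and 0.0223), and shDnmt3L3 minus the mean of shDnmt3L1 and shDnmt3L2 was -0.99 ± 0.09 (adjusted p = 8.16e-05). The call with shDnmt3L3 was lost without shGFP replicate 1 (0.25, adjusted p = 0.138) or shDnmt3L3 replicate 1 (0.26, adjusted p = 0.136) and without background correction (0.13, adjusted p = 0.0645).

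Stag3, the STAG subunit of the meiotic cohesin that holds Smc1b, passed the test with shDnmt3L3 and with neither of the others. It read 8.41 and 8.65 with shDnmt3L1, 8.27 and 8.31 with shDnmt3L2, 9.33 and 9.10 with shDnmt3L3, against 8.39 and 8.42 with shGFP. Both shDnmt3L3 arrays lay above the other 6, and the shDnmt3L1 and shDnmt3L2 arrays overlapped those of shGFP or lay close to them. The difference from shGFP was 0.81 ± 0.11 with shDnmt3L3 (adjusted p = 0.000437), and 0.12 and -0.12 with shDnmt3L1 and shDnmt3L2 (adjusted p = 0.403 and 0.441). The test of shDnmt3L3 against the mean of the other Dnmt3l hairpins gave 0.80 ± 0.09 (adjusted p = 0.000303).

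Syce1 and Tex11 fell with at least 2 hairpins. Syce1, a central element protein of the synaptonemal complex, gave 7.32 and 7.37 with shDnmt3L1, 7.17 and 7.50 with shDnmt3L2, 7.23 and 7.50 with shDnmt3L3, against 7.76 and 8.0 with shGFP. Every Dnmt3l hairpin array was below both shGFP arrays, and the differences were -0.53 ± 0.14, -0.55 ± 0.14 and -0.52 ± 0.14 (adjusted p = 0.015, 0.0168 and 0.0152). The F test among the hairpins did not pass for Syce1 (adjusted p = 0.983). Tex11, an X-linked gene whose protein promotes crossovers, was near the limit of detection at 4.83 and 4.93 with shDnmt3L1, 4.72 and 4.64 with shDnmt3L2, 5.48 and 5.33 with shDnmt3L3, against 5.56 and 5.42 with shGFP. Its difference was -0.61 ± 0.10 with shDnmt3L1 (adjusted p = 0.00128). With shDnmt3L2 it was not detected and was at least 1.59-fold lower (adjusted p = 0.000562), while with shDnmt3L3 its arrays ran into the range of shGFP (-0.09, adjusted p = 0.497). Leaving out single arrays ended the Syce1 calls. Without shGFP replicate 2 they had adjusted p of 0.0906, 0.0972 and 0.0931 with the 3 hairpins. Without the hairpin's own replicate 1 they had 0.0738, 0.109 and 0.105, and without shDnmt3L1 replicate 2 the first was 0.0544. With median scaling Syce1 did not pass with shDnmt3L1 (0.0625) or shDnmt3L2 (0.0524).

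**Figure D4:**
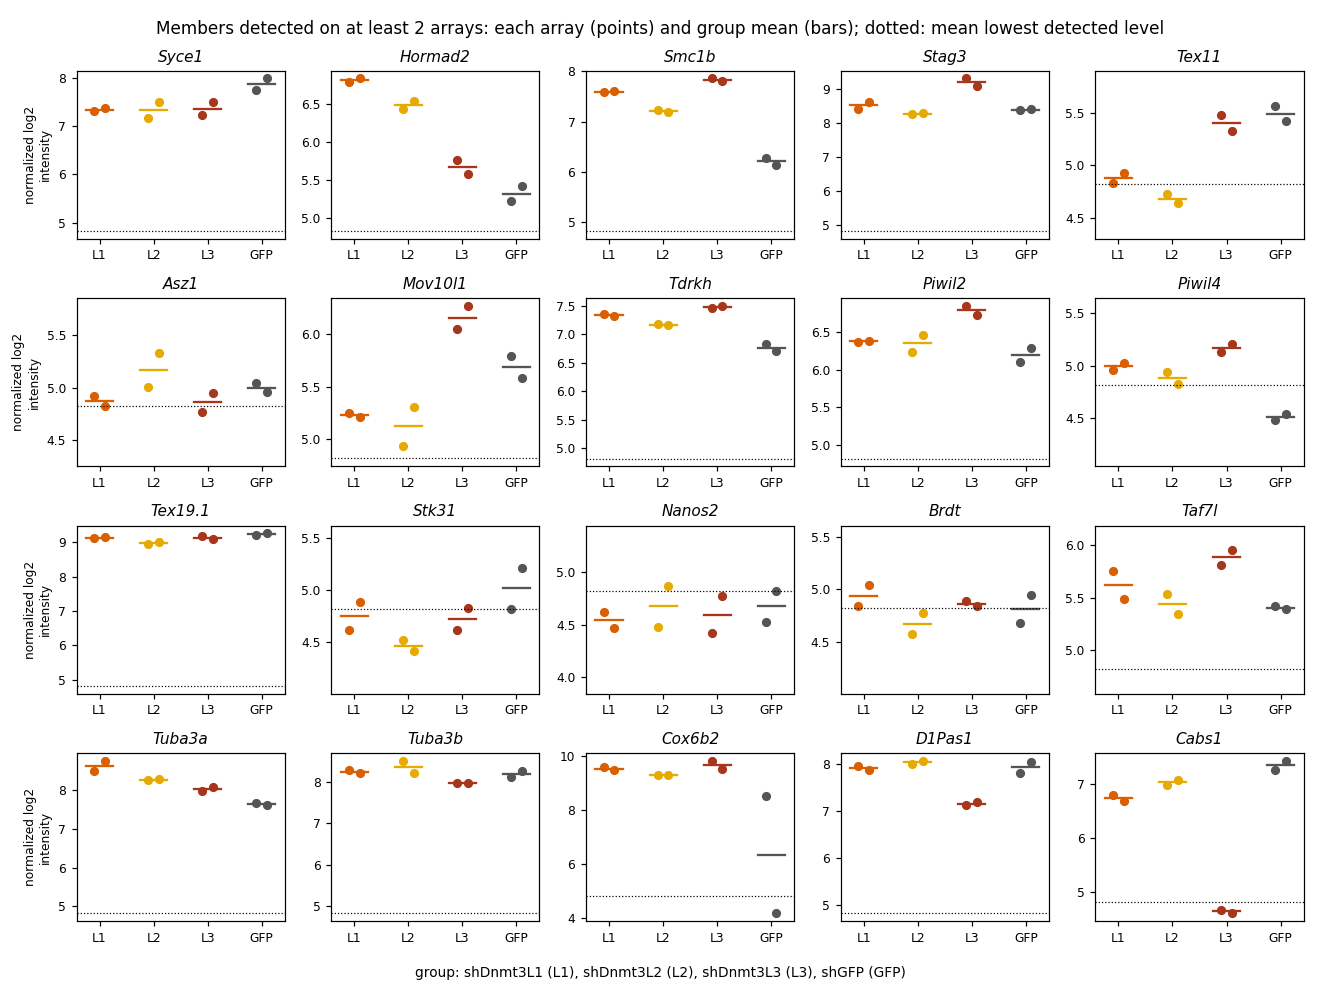
Normalized log2 intensity of the 20 tested members on each array (points) with the mean of the 2 arrays (bars), by group, with a scale of its own in each panel. The dotted line is the mean over arrays of the lowest detected level. Smc1b and Tdrkh are lower on both shGFP arrays than on all others, Cabs1 with shDnmt3L3 is below the line, and Cox6b2 is far apart on the shGFP arrays.

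In the piRNA pathway, 2 of 7 tested members were higher with shDnmt3L1, 2 with shDnmt3L2 and 4 with shDnmt3L3, and those lower were 1, 3 and 0. Tdrkh, a Tudor protein that tethers PIWI proteins to mitochondria, had 7.36 and 7.31 with shDnmt3L1, 7.18 and 7.15 with shDnmt3L2, 7.46 and 7.49 with shDnmt3L3, against 6.82 and 6.70 with shGFP. Each of the 6 arrays with a Dnmt3l hairpin was above both shGFP arrays. The rises were 0.57 ± 0.08, 0.40 ± 0.08 and 0.72 ± 0.08 (adjusted p = 0.000871, 0.00667 and 0.000197), and they kept their call under all 18 alternatives run for a single hairpin. The other tested Tdrkh probe was not detected with shGFP and was at least 1.41-, 1.22- and 1.32-fold higher with shDnmt3L1, shDnmt3L2 and shDnmt3L3 (adjusted p = 0.00135, 0.0117 and 0.00231). That probe passed the detection filter only through the hairpin groups, where it was high. A further Tdrkh probe was not detected on any array and was not tested.

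Piwil4, which in mouse guides DNA methylation to transposons in fetal male germ cells and is also called MIWI2, was not detected with shGFP. It read 4.97 and 5.03 with shDnmt3L1, 4.95 and 4.83 with shDnmt3L2, 5.13 and 5.21 with shDnmt3L3, against 4.48 and 4.55 with shGFP. Both arrays of shDnmt3L1 and of shDnmt3L3 and 1 of shDnmt3L2 were above the detection limit, and all of them lay above the shGFP arrays. The gene was at least 1.11-, 1.03- and 1.25-fold higher with the 3 hairpins in that order (adjusted p = 0.0023, 0.0103 and 0.000345). It entered the test only through the hairpin groups. The other Piwil4 probe was not detected on any array, and with shDnmt3L2 the call was lost without shGFP replicate 1 (0.0558), without shDnmt3L2 replicate 1 (0.0656), without background correction (0.0628) and with an offset of 50 (0.0706).

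Piwil2, the PIWI protein MILI of fetal and adult male germ cells, rose with shDnmt3L3. Its levels were 6.37 and 6.38 with shDnmt3L1, 6.23 and 6.46 with shDnmt3L2, 6.85 and 6.72 with shDnmt3L3, against 6.10 and 6.29 with shGFP. The shDnmt3L3 arrays lay above the other 6, and the difference from shGFP was 0.59 ± 0.11 (adjusted p = 0.0022), against 0.18 and 0.15 with shDnmt3L1 and shDnmt3L2, which did not pass (0.219 and 0.317). For shDnmt3L3 against the mean of shDnmt3L1 and shDnmt3L2 the difference was 0.42 ± 0.09 (adjusted p = 0.00724). With median scaling Piwil2 passed with shDnmt3L1 as well (0.37, adjusted p = 0.0214).

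Mov10l1, the RNA helicase that binds piRNA precursors, was called in opposite directions. It had 5.25 and 5.21 with shDnmt3L1, 4.93 and 5.31 with shDnmt3L2, 6.05 and 6.26 with shDnmt3L3, against 5.79 and 5.58 with shGFP. The shDnmt3L3 arrays were above both shGFP arrays, and the shDnmt3L1 and shDnmt3L2 arrays were below both. The differences from shGFP were -0.46 ± 0.14 with shDnmt3L1, -0.56 ± 0.14 with shDnmt3L2 and 0.47 ± 0.14 with shDnmt3L3 (adjusted p = 0.0265, 0.0138 and 0.021). The test of shDnmt3L3 against the mean of the other Dnmt3l hairpins gave 0.98 ± 0.12 (adjusted p = 0.000361), with no shGFP array in the difference. The calls against shGFP depended on single arrays. Without shGFP replicate 1 the adjusted p was 0.137 with shDnmt3L1 and 0.08 with shDnmt3L2, and without shGFP replicate 2 it was 0.118 with shDnmt3L3. Leaving out shDnmt3L1 replicate 1 or 2 gave 0.0849 and 0.104, shDnmt3L2 replicate 1 gave 0.0852, and shDnmt3L3 replicate 2 gave 0.128. With median scaling the shDnmt3L1 call was also lost (0.116), as it was with no filter on dim probes (0.0599).

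The other 3 members of the piRNA pathway and transposon control passed with 1 hairpin at most. Tex19.1, which restrains retrotransposons and is known to be expressed in mouse embryonic stem cells, had 9.11 and 9.14 with shDnmt3L1, 8.96 and 9.0 with shDnmt3L2, 9.17 and 9.08 with shDnmt3L3, against 9.20 and 9.26 with shGFP. The shDnmt3L2 arrays were the lowest, and all 6 hairpin arrays lay below both shGFP arrays. Its difference was -0.25 ± 0.08 with shDnmt3L2 (adjusted p = 0.0439), and -0.10 and -0.10 with shDnmt3L1 and shDnmt3L3, which did not pass. That call was lost under 11 of 18 alternatives, leaving out any 1 of the 8 arrays among them (adjusted p without 1 array from 0.0536 to 0.167). Asz1, a mitochondrial protein of piRNA production, read 4.92 and 4.83 with shDnmt3L1, 5.01 and 5.34 with shDnmt3L2, 4.77 and 4.95 with shDnmt3L3, against 5.05 and 4.96 with shGFP. The shDnmt3L2 arrays overlapped those of shGFP, the shDnmt3L1 and shDnmt3L3 arrays lay just below them, and no hairpin passed (adjusted p = 0.425, 0.311 and 0.369). Stk31, a Tudor domain protein of male germ cells, was detected on 3 arrays, with 4.62 and 4.89 with shDnmt3L1, 4.52 and 4.42 with shDnmt3L2, 4.62 and 4.83 with shDnmt3L3, against 4.82 and 5.21 with shGFP. With shDnmt3L2, where it was not detected, it was at least 1.14-fold lower than with shGFP, where it was detected on 1 of 2 arrays (adjusted p = 0.0204). That call was lost without shGFP replicate 2 (0.119), without shDnmt3L2 replicate 1 (0.0568) and without shDnmt3L2 replicate 2 (0.0977). Without shGFP replicate 1 Stk31 passed as lower with shDnmt3L1 (0.0453) and shDnmt3L3 (0.0315) as well.

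Among the germ cell regulators, 1 of 3 tested members passed, with shDnmt3L3 alone, where 45.5% of all probes passed. Taf7l, an X-linked subunit of the general transcription factor TFIID used in male germ cells, had 5.75 and 5.49 with shDnmt3L1, 5.53 and 5.35 with shDnmt3L2, 5.82 and 5.95 with shDnmt3L3, against 5.42 and 5.39 with shGFP. It was higher by 0.48 ± 0.11 with shDnmt3L3 (adjusted p = 0.00792), and its differences with shDnmt3L1 (0.21) and shDnmt3L2 (0.03) did not pass. Without shDnmt3L3 replicate 2 the call was lost (0.054), and with median scaling shDnmt3L1 passed too (0.0377). Nanos2, an RNA-binding protein that keeps male germ cells out of meiosis, was detected on 2 arrays, 1 of shDnmt3L2 and 1 of shGFP, with 4.62 and 4.47 with shDnmt3L1, 4.48 and 4.87 with shDnmt3L2, 4.42 and 4.77 with shDnmt3L3, against 4.53 and 4.82 with shGFP. Brdt, the testis-specific bromodomain protein, was detected on both arrays of shDnmt3L1 and of shDnmt3L3, on 1 of shGFP and on none of shDnmt3L2. It read 4.84 and 5.04 with shDnmt3L1, 4.57 and 4.78 with shDnmt3L2, 4.89 and 4.84 with shDnmt3L3, against 4.68 and 4.94 with shGFP. Both genes stayed within a narrow span at the detection limit, their groups overlapped, and neither passed with any hairpin.

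Among 4 tested testis forms of general cell proteins, Tuba3a rose with all 3 hairpins. Tuba3a, an alpha-tubulin of the testis, was measured by 4 probes, and the brightest gave 8.48 and 8.74 with shDnmt3L1, 8.24 and 8.28 with shDnmt3L2, 7.97 and 8.08 with shDnmt3L3, against 7.64 and 7.61 with shGFP. The groups did not overlap and ran in the order shDnmt3L1, shDnmt3L2, shDnmt3L3 and shGFP, highest to lowest. The rises were 0.99 ± 0.10, 0.63 ± 0.10 and 0.40 ± 0.10 (adjusted p = 0.00016, 0.00218 and 0.0116). The other 3 probes rose by 0.78, 1.11 and 1.09 with shDnmt3L1 and by 0.63, 0.97 and 1.02 with shDnmt3L2, all called. With shDnmt3L3 they gave 0.11, which did not pass, 0.55 and 0.67. The call of the brightest probe with shDnmt3L3 was lost without shGFP replicate 2 (0.0528) or shDnmt3L3 replicate 2 (0.0692).

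Tuba3b, the close paralog of Tuba3a, had 1 probe, at 8.28 and 8.23 with shDnmt3L1, 8.52 and 8.23 with shDnmt3L2, 7.98 and 7.98 with shDnmt3L3, against 8.14 and 8.28 with shGFP. Its arrays overlapped between shGFP and both shDnmt3L1 and shDnmt3L2, and no difference from shGFP passed (0.05, 0.17 and -0.23; adjusted p = 0.751, 0.281 and 0.124). The coding sequences of alpha-tubulins are much alike, so signal may be shared between such probes, and which transcripts each probe reads was not tested. D1Pas1, an autosomal copy of a DEAD-box helicase gene that is active in the testis, fell with shDnmt3L3. It had 7.97 and 7.88 with shDnmt3L1, 8.01 and 8.08 with shDnmt3L2, 7.13 and 7.19 with shDnmt3L3, against 7.82 and 8.05 with shGFP. Both shDnmt3L3 arrays were below the other 6, with a difference of -0.77 ± 0.10 from shGFP (adjusted p = 0.000303) and of -0.82 ± 0.08 from the mean of shDnmt3L1 and shDnmt3L2 (adjusted p = 0.000153). With shDnmt3L1 (-0.01) and shDnmt3L2 (0.11) it did not pass. Whether the D1Pas1 probe also reads transcripts of the gene it was copied from was not tested.

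**Figure D5:**
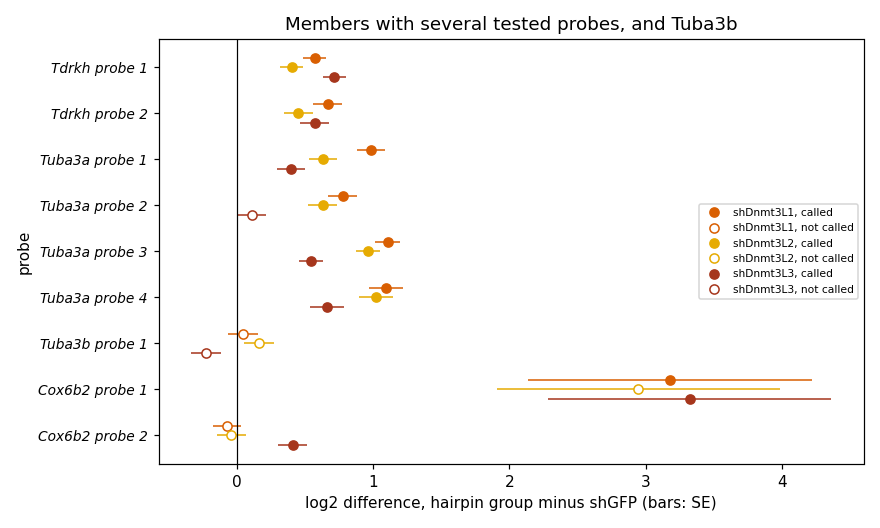
Difference from shGFP, in log2 units, for each tested probe of Tdrkh, Tuba3a, Tuba3b and Cox6b2 with each Dnmt3l hairpin (points, with SE as bars, filled where the adjusted p was under 0.05). Probes of a gene are numbered from brightest to dimmest. The 4 Tuba3a probes share the order of hairpins, with shDnmt3L3 lowest in each, and the Cox6b2 probes differ from one another.

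Cox6b2 encodes a subunit of cytochrome c oxidase that is used in the testis, and it gave the largest differences among the tested members, with the largest SE. Its brighter probe read 9.58 and 9.46 with shDnmt3L1, 9.29 and 9.28 with shDnmt3L2, 9.81 and 9.52 with shDnmt3L3, against 8.51 and 4.17 with shGFP. The 6 hairpin arrays lay within 0.53 log2 units of each other, but the shGFP arrays were 4.34 apart. On shGFP replicate 2 this probe was not detected and was the dimmest of all 45281, and it was the 1 tested probe whose shGFP arrays differed by more than 4 log2 units. With shDnmt3L1, shDnmt3L2 and shDnmt3L3 the differences were 3.18 ± 1.04, 2.95 ± 1.04 and 3.32 ± 1.04 (adjusted p = 0.0365, 0.0577 and 0.0277). With shDnmt3L2 they were 5.11 without shGFP replicate 1 and 0.78 without shGFP replicate 2, both past the threshold (5.21e-06 and 0.00776). The dimmer probe was detected only with shDnmt3L3, where it was at least 1.15-fold higher than with shGFP (adjusted p = 0.0119), and its differences with shDnmt3L1 and shDnmt3L2 were -0.07 and -0.04. The calls with shDnmt3L1 and shDnmt3L3 were also lost without either array of that hairpin (adjusted p = 0.125 and 0.113, and 0.106 and 0.0821), and that with shDnmt3L1 without any 1 of the 4 arrays of shDnmt3L2 and shDnmt3L3 (0.0525 to 0.0527).

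Cabs1, a calcium-binding protein of spermatids, was the member that fell most. Its levels were 6.81 and 6.69 with shDnmt3L1, 6.99 and 7.08 with shDnmt3L2, 4.67 and 4.60 with shDnmt3L3, against 7.27 and 7.44 with shGFP. With shDnmt3L3 both arrays were below the detection limit, and with the other Dnmt3l hairpins all arrays were detected and below both shGFP arrays. It was at least 5.76-fold lower with shDnmt3L3 (adjusted p = 1.61e-06). In log2 units the difference was -0.60 ± 0.09 with shDnmt3L1 and -0.31 ± 0.09 with shDnmt3L2 (adjusted p = 0.00127 and 0.0326). Against the mean of shDnmt3L1 and shDnmt3L2, shDnmt3L3 was at least 4.19-fold lower (adjusted p = 1.75e-06). The call with shDnmt3L2 was lost without shGFP replicate 2 (0.173), without either shDnmt3L2 array (0.147 and 0.0669) and with median scaling (0.19).

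The hairpins differed from each other in 12 of the 20 members by limma's F test among the 3 hairpin groups, where 37.4% of all probes differed. With shDnmt3L3 against the mean of shDnmt3L1 and shDnmt3L2, 8 members were higher and 5 lower, and 18.7% of all probes were called in each direction. The higher members were Smc1b, Stag3, Tex11, Mov10l1, Tdrkh, Piwil2, Piwil4 and Taf7l, and the lower ones were Hormad2, Tuba3a, Tuba3b, D1Pas1 and Cabs1. With shDnmt3L1 against shDnmt3L2, 1 member (Smc1b) was higher and 0 were lower by limma, where 2.82% and 2.30% of all probes were.

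Markers of other cell types moved with the hairpins, and their part in the members' results was not tested. Summed over the 6 measured markers of cells resembling the early cleavage stage, of which 4 were tested and all 4 were higher and Usp17lc and Zfp352 were not detected, the linear normalized intensity was 1650.0 to 1698 with shDnmt3L1, 1487 to 1523 with shDnmt3L2 and 905 to 951 with shDnmt3L3, against 613 to 647 with shGFP. For 10 primitive endoderm markers, with Gata4, Gata6 and Sox17 not detected, the sums were 622 to 628, 674 to 707 and 717 to 731 with the 3 hairpins, against 424 to 456 with shGFP. For 11 fibroblast markers, of which 7 including Col1a1 and Col1a2 were not detected, they were 882 to 883, 826 to 852 and 1085 to 1188, against 748 to 765 with shGFP. Of the 4 tested fibroblast markers, 1 was called higher and 0 lower over the mean of the 3 hairpins by limma, and the higher one was Thy1. For 9 Sertoli and Leydig cell markers, of which 6 including Amh and Star were not detected, they were 279 to 287, 331 to 333 and 477 to 496, against 463 to 476. For 8 primordial germ cell markers, each detected on at least 1 array, they were 8145 to 8382, 8580 to 8929 and 7436 to 7592, against 9400.0 to 9403 with shGFP, although 5 of the 8 were called higher and 2 lower over the mean of the 3 hairpins, with a median of 0.23. In such bulk samples, fewer cells of a type and less RNA per cell cannot be told apart.

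A wider list of 52 germline genes gave 28 tested genes, of which 10 were higher and 5 lower over the mean of the 3 hairpin groups (22.7% and 23.3% of all probes), with a median difference of 0.18. The largest rises were in meiotic genes. Rec8, the kleisin subunit of meiotic cohesin, had 7.92 and 7.57 with shDnmt3L1, 7.29 and 7.13 with shDnmt3L2, 7.65 and 7.49 with shDnmt3L3, against 6.54 and 6.42 with shGFP, a rise of 1.02 ± 0.10 (adjusted p = 0.000115). Meiob, which binds single-stranded DNA during meiotic recombination, had 6.80 and 6.99 with shDnmt3L1, 6.06 and 6.11 with shDnmt3L2, 7.32 and 7.25 with shDnmt3L3, against 5.85 and 5.95 with shGFP. It rose by 0.86 ± 0.08 over the 3 hairpins, but with shDnmt3L2 its difference was 0.18 and did not pass (adjusted p = 0.166). Syce3, a central element protein like Syce1, had 7.18 and 7.28 with shDnmt3L1, 6.66 and 6.76 with shDnmt3L2, 7.16 and 7.17 with shDnmt3L3, against 6.24 and 6.34 with shGFP and rose by 0.75 ± 0.07, with all 6 arrays of Dnmt3l hairpins above shGFP. So of 3 central element genes tested in the members and this list, Syce3 was called higher and Syce1 and Syce2 lower over the mean of the 3 hairpins. Rec8 lay highest with shDnmt3L1 and Meiob with shDnmt3L3.

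The 5 lower genes of that list were 2 without shGFP replicate 2 and 3 without shGFP replicate 1, either shDnmt3L1 array, shDnmt3L2 replicate 2 or shDnmt3L3 replicate 1. The largest falls were in Zcwpw1, a histone mark reader of meiotic recombination, the homeobox gene Rhox13, and Syce2. Zcwpw1 had 7.37 and 7.20 with shDnmt3L1, 6.97 and 7.07 with shDnmt3L2, 7.89 and 7.57 with shDnmt3L3, against 8.85 and 8.74 with shGFP, a difference of -1.45 ± 0.10 (adjusted p = 1.76e-05) with no overlap between any hairpin array and shGFP. Rhox13 differed by -0.68 ± 0.09 and Syce2 by -0.27 ± 0.09 over the 3 hairpins, and the Syce2 call was lost without shGFP replicate 2 (adjusted p = 0.318), without shDnmt3L1 replicate 1 or 2 (0.0734 and 0.0796), without shDnmt3L2 replicate 1 (0.0633) and without shDnmt3L3 replicate 1 or 2 (0.0739 and 0.0728). Of this list, 17 of 45 genes with a probe were detected on no array, among them the recombinase gene Dmc1. With the hairpin as a random block, Rec8 (0.0431) and Zcwpw1 (0.0147) kept an adjusted p under 0.05, and Meiob (0.176), Syce3 (0.0649), Rhox13 (0.0858) and Syce2 (0.507) did not.

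A list on the silencing of germline genes also held Tet1, Tet2 and Tdg, genes of demethylation. Among its 31 tested genes, 5 were higher and 11 lower over the 3 hairpins (22.7% and 23.3% of all probes), with a median of -0.08. The 11 include Dnmt3l, the target of the hairpins, and the 5 include Tet1. In limma's fit with a random hairpin block, 0 were higher and 1, Dnmt3l itself, was lower. The largest rises were in Tet1, which oxidizes methylated cytosine (0.46 ± 0.08), Kdm1a, a histone H3 demethylase (0.44 ± 0.07), and Atf7ip, a partner of the H3 methyltransferase SETDB1 (0.43 ± 0.07). Besides Dnmt3l itself (-1.75 ± 0.07), the largest falls were in L3mbtl2, a subunit of the E2F6 Polycomb complex (-0.60 ± 0.08), and Mbd1, a reader of methylated DNA (-0.56 ± 0.10). These 6 genes had adjusted p between 4.55e-06 and 0.00226. L3mbtl2 read 8.67 and 8.49 with shDnmt3L1, 8.78 and 8.60 with shDnmt3L2, 8.09 and 8.03 with shDnmt3L3, against 9.10 and 9.0 with shGFP, lower on all 6 hairpin arrays and lowest with shDnmt3L3. Without shGFP replicate 1, 3 of these 31 genes were higher and 7 lower. Tet1 did not pass with shDnmt3L1 (0.20) nor Atf7ip with shDnmt3L3 (0.11). With the random block, Dnmt3l itself kept its call (adjusted p = 0.0429), and Tet1, Kdm1a, Atf7ip, L3mbtl2 and Mbd1 had adjusted p of 0.238, 0.119, 0.276, 0.172 and 0.168. Of the members called over the mean of the 3 hairpins, Smc1b kept its call and the others did not, with 0.113 for Hormad2, 0.0841 for Tdrkh, 0.114 for Tuba3a, 0.113 for Piwil4 and 0.321 for Cabs1.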

How the data were processed

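Gene expression was measured on Illumina BeadChips, 2 arrays in each of 4 groups, grouped by the hairpin named in the labels. The non-normalized table deposited by the authors holds linear intensity values, 1 for each probe on each array, and the submitters' processing notes name GenomeStudio 2011.1. Each p-value column beside a deposited intensity is unnamed, per the file headers. It was read as the detection p because it falls as that intensity rises (rank correlation at most -0.983 on every array). The authors' deposited processed intensities of the same arrays served only as an alternative. How they were made is not given in the sources used here.

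Intensities were background-corrected and quantile-normalized with neqc (offset 16, log2) in limma 3.58.1 under R 4.3.3. That correction and offset shrink the differences of dim probes most. Probes were kept where at least 2 arrays gave a detection p under 0.05 (20754 of 45281). Probes were named from the platform annotation, which pairs 34885 with 1 gene, 18 with several and does not list 10378, and none of the last 2 kinds was named. All 8 arrays entered 1 model of 4 group means (lmFit, eBayes; 4 residual and 4.81 prior degrees of freedom), and tests were two-sided. Where a probe was detected on neither array of a group, the difference is a bound, written "at least N-fold". It sets the mean of the brighter group against a floor, which on each array is the lowest detected level or the probe's own level, whichever is higher. The fit was tested on simulated data. With 2 arrays a group, their number limits the precision.

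Promoter windows came from a RefSeq table of GRCm38.p6 that held 33 of the 35 members (Tex11 and Piwil2 were not in it). Protein sequences were not used here. The members and all gene lists were chosen with earlier results of these data known. All members are named. From the further germline and silencing lists, the 3 called genes with the largest rise and the 3 with the largest fall over the mean of the 3 hairpins are named. Alternatives were a fit without background correction, an offset of 50, median scaling, the authors' processed values, other detection filters, 1 probe per gene, the replicate number as a block, each hairpin with shGFP alone, the hairpin as a random block and leaving out each array.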

Additional observations from a re-analysis of the deposited data

Results flagged for a closer look

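For 12 of the 20 tested members, limma's F test found that the effect against shGFP differed among the 3 Dnmt3l hairpins. The adjusted p was 5.68e-06 for Cabs1, 0.000205 for Hormad2, 0.000453 for D1Pas1, 0.000777 for Stag3, 0.00104 for Mov10l1 and 0.0014 for Tex11. It was 0.00187 for Smc1b, 0.00579 for Tuba3a, 0.0187 for Piwil2, 0.0342 for Taf7l, 0.0428 for Tdrkh and 0.0465 for Tuba3b. Over all probes 37.4% differed among the hairpins.

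The first 8 of these kept an adjusted p under 0.05 under every alternative run. In the F test, median scaling ended it for Taf7l (0.0539) and Tdrkh (0.0903). So did no filter on dim probes for Taf7l (0.0608) and Tuba3b (0.0781), and the replicate block for Tdrkh (0.0572) and Tuba3b (0.0598). Tuba3b also lost it with the authors' processed values (0.0583). Piwil2 lost it without shDnmt3L3 replicate 1 (0.129) or replicate 2 (0.0541). Taf7l lost it without shDnmt3L2 replicate 2 (0.119) and without shDnmt3L3 replicate 1 (0.0695) or replicate 2 (0.159). Tdrkh lost it without any 1 of the 6 hairpin arrays (0.0684 to 0.14), and Tuba3b without 7 of the 8 arrays in turn, all but shDnmt3L2 replicate 2 (0.0522 to 0.159).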

How the results depend on the processing

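Of 148 single-gene comparisons, 102 were called, and no called one changed direction under the alternatives run for it, at most 18 of 21. Some values near 0 that were not called did change sign. Of 2609 recomputed values, 2423 stayed on their side of the threshold, 158 lost it and 28 passed it, and 58 of the 102 calls were kept under every alternative. Leaving out 1 array gave 5 to 6 members higher and 2 to 4 lower with shDnmt3L1, 4 to 6 higher and 1 to 5 lower with shDnmt3L2, 6 to 10 higher and 2 to 4 lower with shDnmt3L3, and 6 to 8 higher and 2 to 5 lower over their mean. It gave 8 to 11 members in the F test, 7 to 10 higher and 2 to 4 lower further germline genes, and 3 to 5 higher and 7 to 10 lower silencing genes. With median scaling, the members lower were 2 with shDnmt3L1, 3 with shDnmt3L2 and 3 over the mean, and 2 further germline genes were lower. Median scaling moved the median of all probes over the mean of the hairpins to 0.06, against -0.0098. With no filter on dim probes, 3 members were lower over the mean. The cause was not tested.

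With the hairpin as a random block, whose estimated correlation was 0.624, 687 probes were called over the mean of the hairpins, against 9547 without it. There 1 member was higher and 0 were lower, 1 further germline gene was higher and 1 lower, and 0 silencing genes were higher and 1 lower. With the replicate number as a block, 9435 probes were called over the mean. Same-numbered arrays of 6 pairs of groups had deviations that correlated between -0.0061 and 0.04, so no shift shared by same-numbered arrays was seen. That cannot show whether such arrays were handled together, which the labels do not state. Detection limits the 12 members with no test, of which no difference can be stated.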
